A study of Mus musculus with 30 samples.

Results

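Messenger RNA of 10 genes that build and supply membrane contacts between the endoplasmic reticulum (ER) and the Golgi was followed in mouse bone marrow derived macrophages. The genes are Col4a3bp, Vapa, Vapb, Pi4ka, Pi4kb, Pi4k2a, Sacm1l, Arf1, Plekha3 and Plekha8. They were taken by gene symbol from the 30538 genes of the count table. All 10 passed the filter on low counts, as did 13173 genes in all. The lowest count of any of them in any library was 323.

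At these contacts the ER protein pair VAPA and VAPB (genes Vapa and Vapb) holds lipid carriers that also bind phosphatidylinositol 4-phosphate (PI4P) on the Golgi. OSBP carries cholesterol towards the Golgi in exchange for PI4P, and CERT, the product of Col4a3bp, carries ceramide for sphingomyelin synthesis. PI4P is made by PI4-kinases, of which PI4KB and PI4K2A work at the Golgi and PI4KA at the plasma membrane, and it is removed by the ER phosphatase SAC1, the product of Sacm1l. The small GTPase ARF1 brings coats and PI4KB to the Golgi and helps PI4P readers to bind, among them FAPP1 (Plekha3) and FAPP2 (Plekha8). FAPP2 carries glucosylceramide.

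Cells of wild-type C57BL/6 mice were left untreated or given 25-hydroxycholesterol (25HC, an oxysterol, 5 µM), itraconazole (an antifungal drug, 1 µM) or OSW-1 (a plant steroidal saponin, 0.3 µM) for 18 h. All 3 are used here as ligands of OSBP that block it, as the series title states. Cells were collected then, or after 18 h with bacterial lipopolysaccharide (LPS, 10 ng/mL), which macrophages sense through TLR4. Untreated cells of Ch25h-/- mice, which lack the enzyme that makes 25HC, were collected without and with LPS. This gave 10 groups of 3 libraries, 1 for each of 3 mice numbered within a genotype. No vehicle is named for untreated cells, and cells without LPS were collected at time 0, so that LPS and a further 18 h of culture cannot be told apart. The age of the mice is not given in the sources used here.

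Library totals were 23656860 to 43922154 counts. Counts were all even in 20 libraries and both odd and even in 10. Those 10 are the OSW-1 with LPS libraries, all 6 Ch25h-/- libraries and 1 library of 25HC without LPS. All 10 also had lower totals than the all-even libraries, at 23656860 to 29630084 counts beside 30634780 or more. Genotype, and OSW-1 with LPS, therefore cannot be told apart from that difference in counting. What differed is not given in the sources used here, so that these totals may not rank depth. The deleted gene Ch25h had 1.42 to 2.24 CPM (counts scaled for library size, the unit used throughout) in untreated wild-type cells without LPS and 0 to 0.277 CPM in Ch25h-/- cells without LPS. The summed level of the 6 macrophage markers in the table (of 7 listed) was 10630 to 28600 CPM in 9 groups and 3307 to 4859 CPM in OSW-1 with LPS. The sums of B cell, T cell, neutrophil, dendritic cell, erythroid and mast cell markers reached at most 11.8 CPM in any library, and those of stroma markers 20.5 CPM, in Ch25h-/- cells with LPS. The macrophage sum does not show that each marker fell. Over all 30 libraries Lyz2 ranged from 1272 to 21070 CPM and Csf1r from 1298 to 3233 CPM. Itgam ranged from 186.5 to 2732, Cd68 from 115.1 to 1913, Fcgr1 from 43.94 to 1649 and Mertk from 1.445 to 140.5 CPM. Single markers were not compared between groups. The lower macrophage sum is in the same 3 libraries as each OSW-1 with LPS result below, and its part in them was not tested. In bulk RNA, fewer cells of a type and less RNA per cell cannot be told apart.

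Promoter sequence is shown for the genes called higher with each compound without LPS. RefSeq windows on GRCm38.p6, from 250 bases before to 50 after a transcript start, were matched for all 10 genes (13 windows). The 4 genes that were higher with all 3 compounds without LPS are Col4a3bp, Vapa, Arf1 and Plekha3. The 100 bases before their outermost annotated start read, 5′ to 3′ on the gene's strand:
Col4a3bp, chr13:96542518-96542617, plus strand: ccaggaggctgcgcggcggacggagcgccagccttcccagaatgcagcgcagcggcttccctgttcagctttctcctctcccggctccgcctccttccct
Vapa, chr17:65613556-65613655, minus strand: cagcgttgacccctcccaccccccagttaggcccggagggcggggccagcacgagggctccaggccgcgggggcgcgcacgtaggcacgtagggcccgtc
Arf1, chr11:59228271-59228370, minus strand: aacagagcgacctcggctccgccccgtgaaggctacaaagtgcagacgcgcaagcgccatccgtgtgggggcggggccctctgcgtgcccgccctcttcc
Plekha3, chr2:76675181-76675280, plus strand: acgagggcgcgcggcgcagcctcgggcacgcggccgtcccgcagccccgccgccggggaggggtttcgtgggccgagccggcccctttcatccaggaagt
These stretches are 69% (Col4a3bp), 77% (Vapa), 70% (Arf1) and 78% (Plekha3) G and C. None holds any of the 5 motifs searched below.

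The motifs were searched on both strands of the whole 300-base windows. Arf1 held the Golgi stress response element, spelled ACGTGGC and present in 2.58% of all 32851 windows. It overlaps there with the unfolded protein response element TGACGTGG, present in 0.676% of windows. Both fall at 1 site that starts at position 23 (Golgi element) or 21 from one RefSeq start and at position -82 or -84 from the other. Vapa held an E-box, CACGTG (7.15% of windows), which starts at position -1. The matches are shown in capitals:
Arf1 Golgi stress response element, chr11:59228227-59228255, minus strand: ggcaggcgctgACGTGGCtgccgtcagcg
Arf1 unfolded protein response element, chr11:59228228-59228257, minus strand: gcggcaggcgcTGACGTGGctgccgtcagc
Vapa E-box, chr17:65613540-65613567, minus strand: gtagggcccgtCACGTGgggcgccgagg
No window of the 10 genes held the cAMP response element TGACGTCA (1.79% of all windows) or the interferon-stimulated response element (3.44%). A match is a run of letters, not a shown binding site. The windows of the 10 genes were 44.7% to 75.3% G and C, beside a median of 52.7% over all windows.

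Levels were compared between genes as CPM per kilobase of annotated exon, with each gene's exons merged. On that scale Arf1 was the highest of the 10 in every group, at 197 in untreated wild-type cells without LPS and 388 with OSW-1 and LPS. Vapa came second in every group, from 28.3 in Ch25h-/- cells without LPS to 57.8 with OSW-1 and LPS. Plekha8 was the lowest throughout, at 1.62 to 2.62. Between them, the order changed with treatment. Col4a3bp stood at 10.4 in untreated wild-type cells without LPS and 9.02 with LPS, and at 24.4 with itraconazole and LPS. Pi4k2a was at 21.9 without and 37.8 with LPS in untreated wild-type cells, the highest of the 3 kinases in both. With OSW-1 and LPS it stood at 21.8, and Pi4ka at 7.44.

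**Figure D1:**
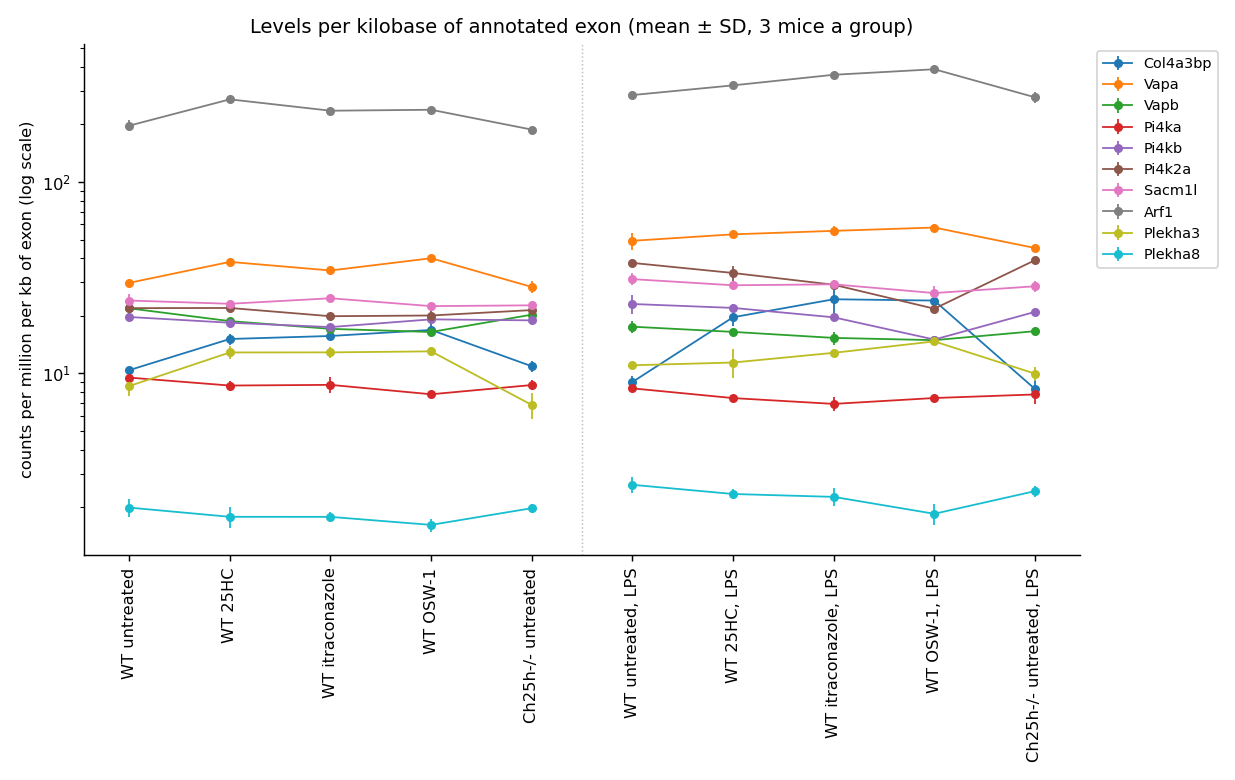
CPM per kilobase of exon (log axis) for the 10 genes in the 10 groups, as mean ± SD over 3 mice, with lines only to guide the eye. Arf1 is the highest and Plekha8 the lowest in every group, and Col4a3bp goes from 9.02 in untreated to 24.4 in itraconazole-treated wild-type cells with LPS.

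A gene was called changed at an adjusted p under 0.05, over all 13173 genes tested. With LPS, 9 of the 10 genes were called in untreated wild-type cells, where 60.9% of all tested genes were called. Of these, 7 were higher (30.8% of all genes) and 2 lower (30.1%). In Ch25h-/- cells 8 were called, beside 57.2% of all genes, with 6 higher (28%) and 2 lower (29.2%). Without LPS, 25HC changed 5, beside 28.7% of all genes, with 4 higher (15.9%) and 1 lower (12.8%). Itraconazole changed 6, beside 26.8%, with 4 higher (14.4%) and 2 lower (12.4%). OSW-1 changed 7, beside 37.3%, with 4 higher (20.1%) and 3 lower (17.2%). The same 4 genes were higher with each compound, and Vapb was lower with each. These 3 comparisons share their untreated libraries, and so do the 3 with LPS.

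Between cells that all had LPS, 25HC changed 3 of the 10, beside 41.8% of all genes, with 2 higher (20.8%) and 1 lower (21%). Itraconazole changed 7, beside 54.4%, with 3 higher (26.5%) and 4 lower (27.9%). OSW-1 changed 9, beside 71.4%, with 4 higher (34.3%) and 5 lower (37.1%). The response to LPS itself differed from that of untreated cells for 3 of the 10 genes with 25HC, beside 12.3% of all genes, with 1 higher (5.34%) and 2 lower (6.95%). With itraconazole it differed for 1, which was higher, beside 26.3% (12.2% higher, 14.2% lower). With OSW-1 it differed for 3, beside 51.7%, with 1 higher (23.4%) and 2 lower (28.3%). Several of these shares are near or under those of all genes, so that the values of single genes, not the counts, carry the description below. Doses differed between compounds, and their values are set side by side without a test between them.

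**Figure D2:**
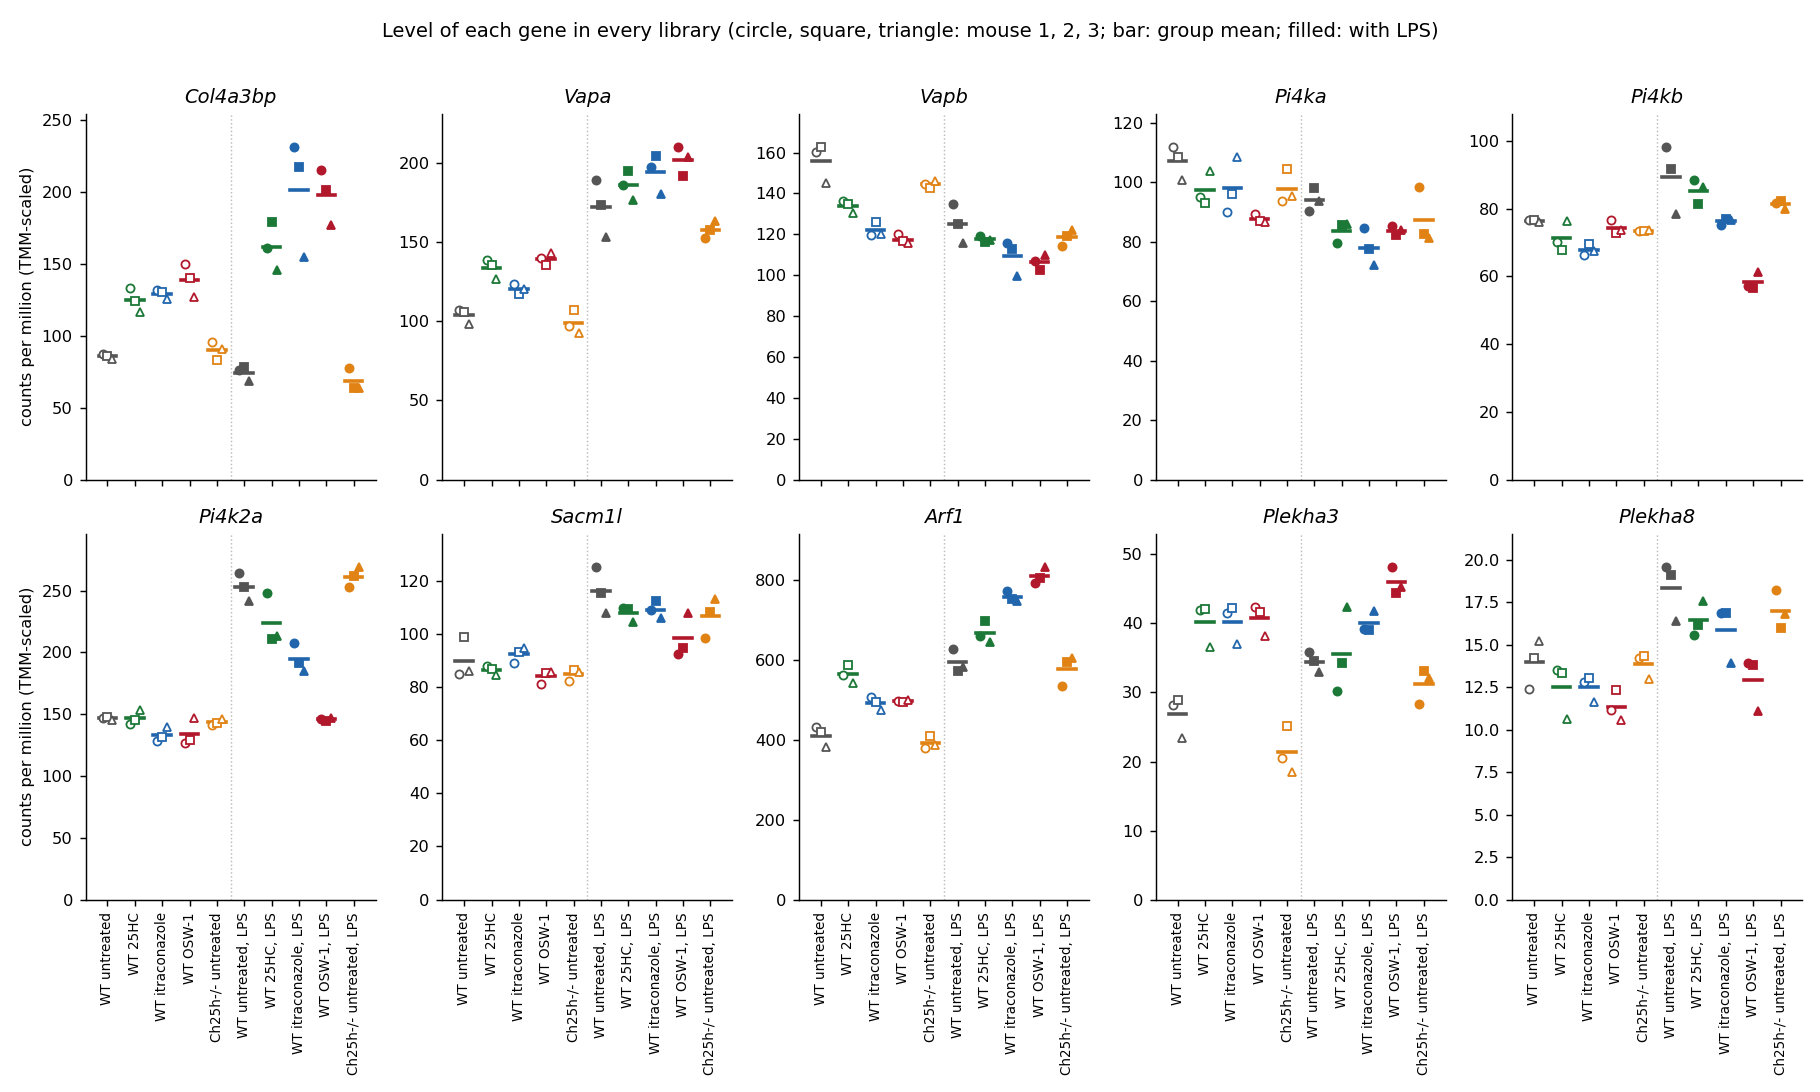
CPM of each gene in all 30 libraries, on a linear axis from 0, with 1 symbol a mouse and a bar at each group's mean. Col4a3bp is at 63.6 to 95.7 CPM in the 12 libraries without a compound and at 117 to 231 CPM in the 18 with one.

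Col4a3bp (chr13:96542618-96640167 on GRCm38, plus strand, protein-coding) encodes CERT, the ceramide carrier. It was higher with each compound, without and with LPS, and most so in cells that also had LPS. In untreated wild-type cells without LPS the 3 mice had 87.4, 85.9 and 83.6 CPM. With 25HC they had 133, 124 and 117 CPM, with itraconazole 132, 130 and 126 CPM, and with OSW-1 150, 140 and 127 CPM. Every library with a compound lay above every untreated one. The log2 fold changes were 0.54 ± 0.115 (SE) for 25HC (adjusted p = 0.000926), 0.59 ± 0.115 for itraconazole (adjusted p = 0.000438) and 0.70 ± 0.115 for OSW-1 (adjusted p = 3.59e-05).

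With LPS, Col4a3bp stood at 76.2, 78.4 and 68.3 CPM in untreated wild-type cells. It stood at 161, 179 and 146 CPM with 25HC, at 231, 217 and 155 CPM with itraconazole, and at 215, 202 and 177 CPM with OSW-1. The groups with a compound were again wholly above the untreated group, and mouse 3 gave the lowest value in each of the 4. The log2 fold changes were 1.12 ± 0.116 with 25HC (2.18-fold, adjusted p = 8.45e-08), 1.44 ± 0.117 with itraconazole (2.71-fold, adjusted p = 6.92e-10) and 1.41 ± 0.117 with OSW-1 (2.66-fold, adjusted p = 8.22e-11).

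LPS alone left Col4a3bp 13.2% lower in wild-type cells, a log2 change of -0.21 ± 0.115 that did not pass (adjusted p = 0.126), though the groups did not overlap and all 3 mice were lower. It passed with the mouse as a block (-0.21, adjusted p = 0.0288) and when scaled by library totals alone (-0.55, adjusted p = 0.000156). In Ch25h-/- cells Col4a3bp fell with LPS, from 95.7, 83.0 and 90.7 CPM to 77.5, 63.6 and 63.8 CPM (log2 change -0.39 ± 0.116, adjusted p = 0.00525; -0.66 when scaled by library totals alone). With a compound the direction was the other way. The response to LPS differed from that of untreated cells by 0.58 ± 0.162 with 25HC (adjusted p = 0.021), by 0.84 ± 0.162 with itraconazole (adjusted p = 0.00056) and by 0.71 ± 0.162 with OSW-1 (adjusted p = 0.000694), each in 3 of 3 mice. The 25HC difference was 0.50 without mouse 2 of the 25HC with LPS group and no longer passed (adjusted p = 0.0724). Exons of Col4a3bp share 267 bases with a gene on the opposite strand, Gm48133, and the strand setting of the counting is not given in the sources used here.

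**Figure D3:**
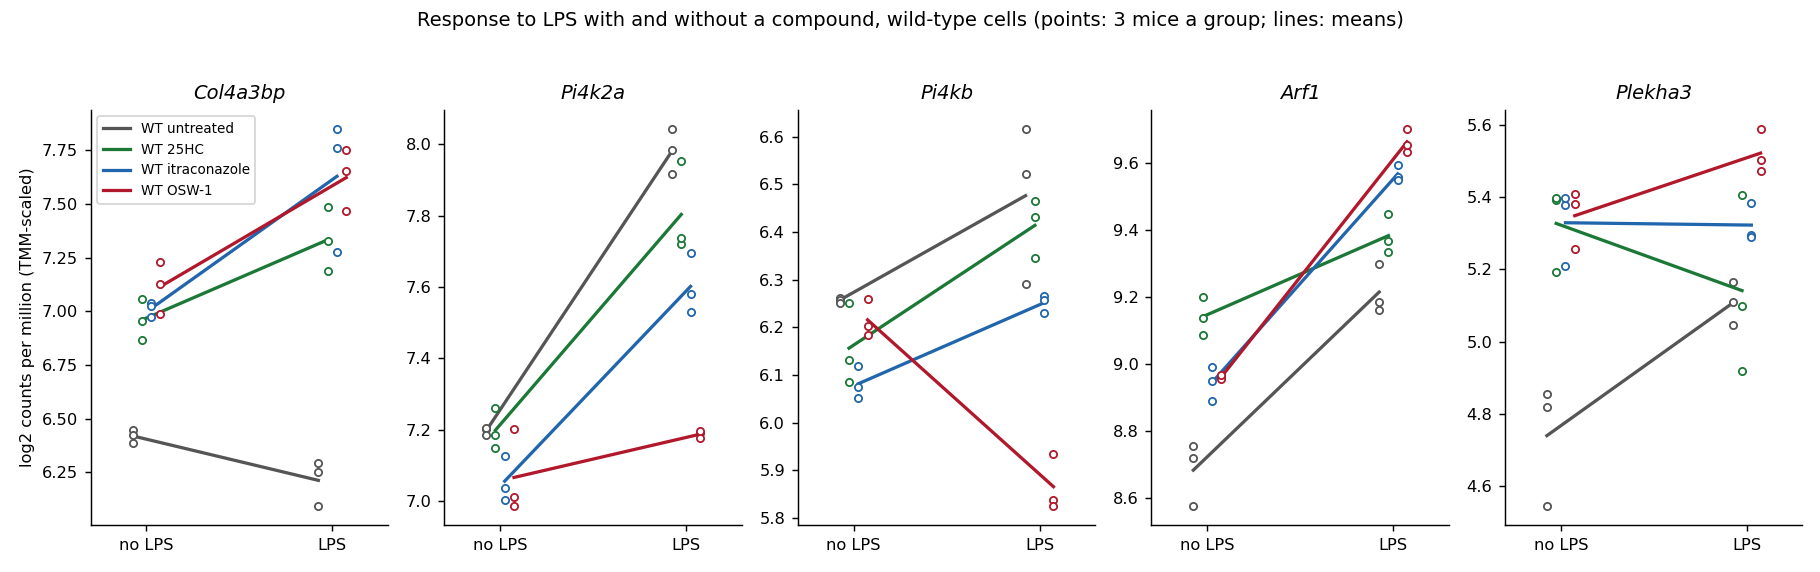
Log2 CPM without and with LPS in wild-type cells for 5 genes, by pretreatment, with points for 3 mice and lines between group means. The Col4a3bp means go down in untreated cells and up with each compound. The change in untreated cells was not called (-0.21, adjusted p = 0.126 by edgeR). Pi4k2a goes from a mean of 147 to 253 CPM in untreated cells but from 134 to 146 CPM with OSW-1. Scaled by library totals alone, the Pi4kb change with LPS in untreated cells is -0.12.

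Vapa (chr17:65578327-65613555, minus strand) and Vapb (chr2:173737511-173784336, plus strand) encode the paired ER anchors for carriers such as CERT and OSBP. They moved in opposite directions. Vapa had 107, 106 and 98.2 CPM in untreated wild-type cells without LPS and 189, 174 and 154 CPM with LPS. Vapb had 160, 163 and 145 CPM without and 135, 125 and 116 CPM with LPS. Neither pair of groups overlapped. Vapa rose by 0.73 ± 0.0741 on the log2 scale (adjusted p = 5.6e-09) and Vapb fell by 0.32 ± 0.0642 (adjusted p = 0.000136). In Ch25h-/- cells the changes were 0.68 ± 0.0743 for Vapa (adjusted p = 2.41e-08) and -0.29 ± 0.0645 for Vapb (adjusted p = 0.00051). When scaled by library totals alone, Vapa rose less, by 0.38 in wild-type and 0.41 in Ch25h-/- cells, and the Vapb changes were -0.66 and -0.55, all still called.

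The compounds without LPS moved this pair the same way as LPS did. Vapa stood at 139, 136 and 126 CPM with 25HC, at 123, 117 and 121 CPM with itraconazole and at 140, 136 and 143 CPM with OSW-1, all above the untreated libraries. Its log2 fold changes were 0.36 ± 0.0738 (adjusted p = 0.000608), 0.21 ± 0.0738 (adjusted p = 0.0323) and 0.43 ± 0.0738 (adjusted p = 6.3e-05) in that order. The itraconazole call was lost without untreated mouse 3 or any 1 of the itraconazole mice (log2 fold change 0.18 to 0.24, adjusted p 0.0508 to 0.146) and without the low-count filter (adjusted p = 0.071). Vapb stood at 136, 135 and 130 CPM with 25HC, at 120, 126 and 120 CPM with itraconazole and at 120, 117 and 116 CPM with OSW-1, all below the untreated libraries. Its log2 fold changes were -0.22 ± 0.0642 (adjusted p = 0.0112), -0.36 ± 0.0642 (adjusted p = 0.00021) and -0.41 ± 0.0642 (adjusted p = 1.86e-05). The 25HC call was lost without untreated mouse 2 (-0.19, adjusted p = 0.0553).

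Between cells with LPS the pair moved less. Vapa had 186, 195 and 177 CPM with 25HC, 197, 204 and 181 CPM with itraconazole, and 210, 192 and 204 CPM with OSW-1; only the OSW-1 group lay wholly above the untreated LPS group. The log2 fold changes were 0.11 ± 0.0736 with 25HC (95% interval -0.040 to 0.26, adjusted p = 0.231), 0.17 ± 0.0736 with itraconazole (adjusted p = 0.0498) and 0.23 ± 0.0736 with OSW-1 (adjusted p = 0.00725). The itraconazole call was lost without untreated mouse 2 or 3 or itraconazole mouse 1 or 2 (0.098 to 0.18, adjusted p 0.0807 to 0.284). It was also lost with DESeq2 (adjusted p = 0.0587), DESeq2 size factors (0.0747), no filter (0.111), even counts halved (0.0535) and the compared groups alone (0.224), and was 0.27 when scaled by library totals alone. The OSW-1 call was lost without untreated mouse 3 (0.15, adjusted p = 0.0695) and with the compared groups alone (adjusted p = 0.0544), and was 0.49 when scaled by library totals alone. Vapb had 119, 116 and 117 CPM with 25HC, 116, 113 and 99.4 CPM with itraconazole, and 107, 102 and 110 CPM with OSW-1. It did not pass with 25HC (-0.091 ± 0.0643, adjusted p = 0.268), and was lower with itraconazole (-0.20 ± 0.0643, adjusted p = 0.0128) and with OSW-1 (-0.23 ± 0.0644, adjusted p = 0.00226; 0.023 when scaled by library totals alone, and adjusted p = 0.051 with the compared groups alone). The itraconazole call was lost without untreated mouse 1 (-0.15, adjusted p = 0.0716) or itraconazole mouse 3 (-0.13, adjusted p = 0.1), when scaled by library totals alone (-0.096, adjusted p = 0.179) and with the compared groups alone (adjusted p = 0.172). No difference in the response to LPS passed for either gene. Under other settings some did: the OSW-1 difference of Vapb with library totals alone (0.37, adjusted p = 0.000644), with DESeq2 (0.20, adjusted p = 0.0401) and without untreated LPS mouse 1 (0.23, adjusted p = 0.0427). Without untreated LPS mouse 3, Vapa passed with 25HC (-0.33, adjusted p = 0.0304) and with OSW-1 (-0.27, adjusted p = 0.0246).

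**Figure D4:**
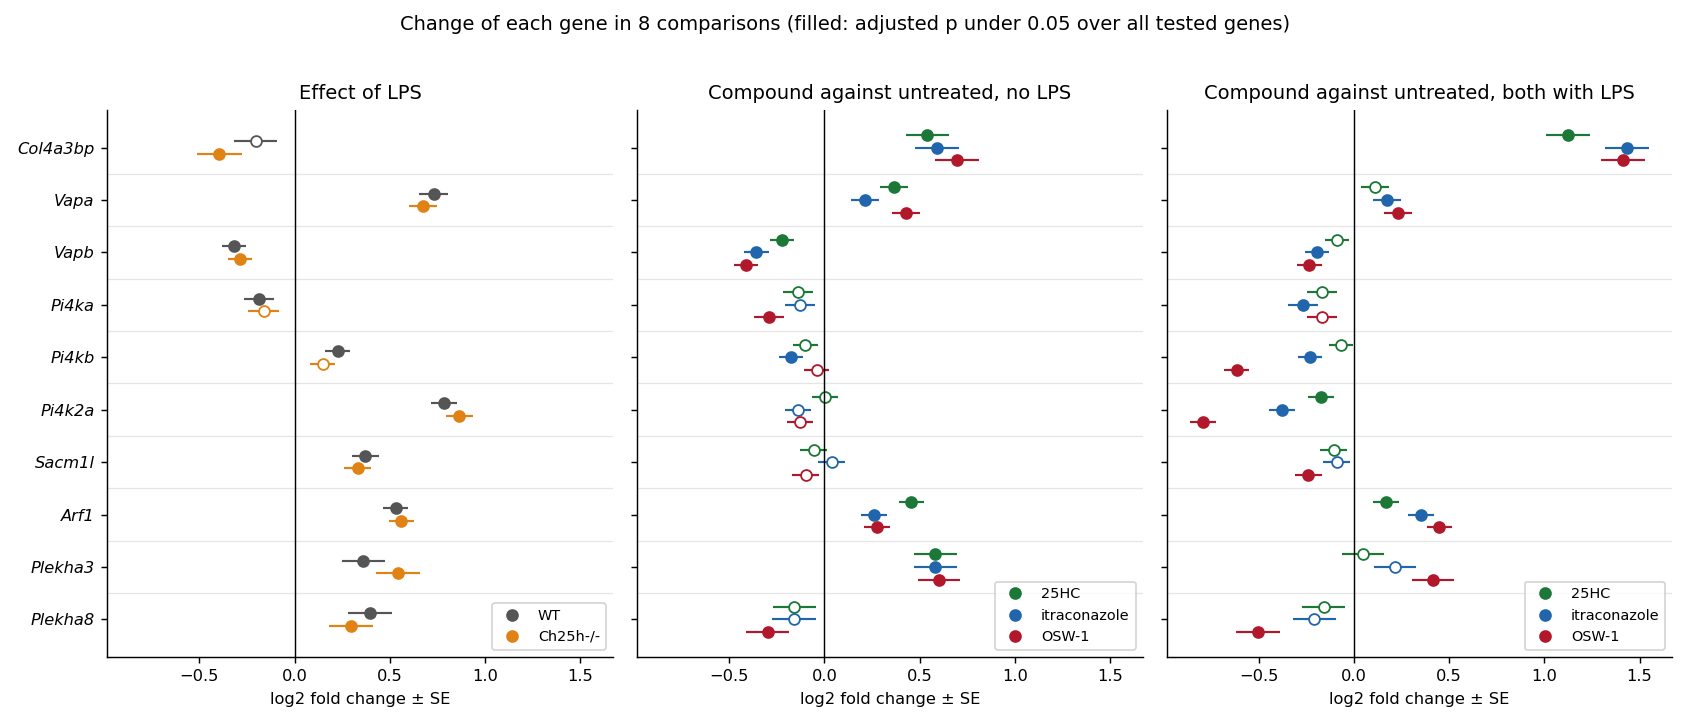
Log2 fold change ± SE of each gene with LPS (left), with each compound without LPS (middle) and with each compound among cells given LPS (right), with filled points where the adjusted p is under 0.05. Col4a3bp is higher with all 3 compounds in both panels, and Vapa and Vapb lie on opposite sides of 0; scaled by library totals alone, Pi4kb with LPS in wild-type cells (-0.12) and Vapb (0.023) and Sacm1l (0.014) with OSW-1 and LPS change sign.

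The 3 PI4-kinases behaved differently. Pi4k2a (chr19:42090470-42122087, plus strand) encodes the membrane-bound kinase of the trans-Golgi and endosomes. It rose with LPS. It had 147, 148 and 146 CPM in untreated wild-type cells without LPS and 264, 253 and 241 CPM with LPS. The rise was 0.78 ± 0.0692 on the log2 scale (1.72-fold, adjusted p = 4.66e-10), and 0.87 ± 0.0694 in Ch25h-/- cells (1.82-fold, adjusted p = 9.06e-11). When scaled by library totals alone, the wild-type value was 0.44 and still called. No change with a compound passed without LPS, with log2 fold changes of 0.0024 ± 0.0689 for 25HC, -0.14 ± 0.0689 for itraconazole and -0.13 ± 0.0689 for OSW-1 (adjusted p = 0.99, 0.138 and 0.152). Without OSW-1 mouse 3, the OSW-1 value was -0.20 and passed (adjusted p = 0.0384).

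With LPS, Pi4k2a stood at 248, 211 and 214 CPM with 25HC, at 207, 191 and 185 CPM with itraconazole, and at 146, 145 and 147 CPM with OSW-1. The OSW-1 libraries thus lay at the level of untreated cells without LPS, and the itraconazole libraries between. The log2 fold changes against untreated cells with LPS were -0.17 ± 0.0687 with 25HC (adjusted p = 0.0436), -0.38 ± 0.0688 with itraconazole (adjusted p = 6.18e-05) and -0.79 ± 0.0693 with OSW-1 (adjusted p = 2.13e-10). The 25HC groups overlapped, and that call was lost without untreated mouse 1 or 2 or 25HC mouse 2 or 3 (-0.17 to -0.13, adjusted p 0.0821 to 0.194), without the filter (adjusted p = 0.105), when scaled by library totals alone (-0.14, adjusted p = 0.0728) and with the compared groups alone (adjusted p = 0.247). The response to LPS was smaller with OSW-1 by 0.67 ± 0.0975 (log2 difference -0.67, adjusted p = 4.12e-06, 3 of 3 mice). With itraconazole the difference was -0.24 ± 0.0973 and did not pass (adjusted p = 0.0718), but it did without untreated LPS mouse 3 (-0.27) or itraconazole LPS mouse 1 (-0.29, adjusted p = 0.0494 in both) and with DESeq2 (-0.25, adjusted p = 0.0365).

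Pi4kb (chr3:94974731-95006843, plus strand) encodes the Golgi kinase that ARF1 and ACBD3 recruit. It had 76.7, 76.5 and 76.2 CPM in untreated wild-type cells without LPS and 98.2, 91.8 and 78.3 CPM with LPS. The groups did not overlap, and mouse 3 with LPS lay close to the cells without. The log2 fold change was 0.23 ± 0.0651 (adjusted p = 0.00421; adjusted p = 0.0995 when these 2 groups were fitted alone), and -0.12 when scaled by library totals alone. In Ch25h-/- cells it was 0.15 ± 0.0655 (adjusted p = 0.058), and the call was made with DESeq2 (0.17, adjusted p = 0.022), with its size factors in edgeR (adjusted p = 0.0299) and with even counts halved (adjusted p = 0.046).

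With OSW-1 and LPS, Pi4kb stood at 57.1, 56.7 and 61.2 CPM, the lowest of the 10 groups and clear of the next. The change against untreated cells with LPS was -0.62 ± 0.0656 (0.652-fold, adjusted p = 7.2e-09; -0.36 and still called when scaled by library totals alone). The response to LPS differed from that of untreated cells by -0.58 ± 0.0923 (adjusted p = 1.38e-05, 3 of 3 mice; -0.38 and still called with that scaling). Without LPS, OSW-1 left Pi4kb at 76.6, 72.7 and 73.6 CPM (-0.041 ± 0.065, adjusted p = 0.661). Itraconazole with LPS gave 75.1, 77.0 and 76.5 CPM (-0.23 ± 0.0651, adjusted p = 0.00431). That call was lost when scaled by library totals alone (-0.13, adjusted p = 0.0704) and with the compared groups alone (adjusted p = 0.12). Itraconazole without LPS gave 66.3, 69.5 and 67.4 CPM (-0.18 ± 0.0651, adjusted p = 0.0475). The call without LPS was lost when any 1 of its 6 libraries was left out (-0.19 to -0.16, adjusted p 0.0727 to 0.144) and with the mouse as a block (-0.17, adjusted p = 0.0555). It was also lost without the filter (adjusted p = 0.145) and when scaled by library totals alone (-0.12, adjusted p = 0.123). With 25HC it did not pass without LPS (-0.099 ± 0.0651, adjusted p = 0.272) or with it (-0.068 ± 0.065, adjusted p = 0.424). The second became -0.15 (adjusted p = 0.0443) without untreated LPS mouse 3. Exons of Pi4kb share 895 bases with genes on the opposite strand.

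Pi4ka (chr16:17280351-17406314, minus strand) encodes the large kinase of the plasma membrane. It varied least of the kinases, from a mean of 78.0 CPM with itraconazole and LPS to 107 CPM in untreated wild-type cells without LPS. With LPS it went from 112, 108 and 101 CPM to 90.4, 98.0 and 93.6 CPM in wild-type cells (-0.19 ± 0.0795, adjusted p = 0.0448). That call was lost without untreated mouse 1 or 2, or LPS mouse 1 or 3 (-0.18 to -0.15, adjusted p 0.0805 to 0.179), without the filter (adjusted p = 0.0852) and with the compared groups alone (adjusted p = 0.0994), and was -0.53 when scaled by library totals alone. In Ch25h-/- cells the change was -0.16 ± 0.08 (adjusted p = 0.0844), and it passed without LPS mouse 1 (-0.26, adjusted p = 0.00988) and when scaled by library totals alone (-0.43, adjusted p = 0.000225). OSW-1 without LPS gave 89.2, 86.8 and 86.7 CPM, all below the untreated libraries (-0.29 ± 0.0795, adjusted p = 0.00571). Itraconazole with LPS gave 84.5, 77.4 and 72.1 CPM (-0.27 ± 0.0798, adjusted p = 0.00614). That call was lost when scaled by library totals alone (-0.18, adjusted p = 0.103) and with the compared groups alone (adjusted p = 0.0637). The other 4 compound comparisons lay between -0.17 and -0.13 and did not pass. OSW-1 with LPS passed without untreated LPS mouse 1 (-0.21, adjusted p = 0.0462), and the OSW-1 difference of response passed when scaled by library totals alone (0.31, adjusted p = 0.042). Exons of Pi4ka share 300 bases with Snap29 and Tmem191c on the opposite strand.

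Sacm1l (chr9:123529759-123592600, plus strand) encodes SAC1, the phosphatase that removes PI4P in the ER. LPS was its main mover. Untreated wild-type cells had 85.0, 98.6 and 85.9 CPM without and 125, 116 and 108 CPM with LPS, with no overlap. The rise was 0.37 ± 0.0706 in wild-type (adjusted p = 6.86e-05) and 0.33 ± 0.0709 in Ch25h-/- cells (adjusted p = 0.000303). When scaled by library totals alone, the values were 0.026 and 0.061, and neither passed. No compound changed Sacm1l without LPS (log2 fold changes -0.097 to 0.039). Among cells with LPS, OSW-1 gave 92.4, 94.8 and 108 CPM and a lower level (-0.24 ± 0.0706, adjusted p = 0.00372; 0.014 when scaled by library totals alone, and adjusted p = 0.064 when these 2 groups were fitted alone). The changes with 25HC (-0.11 ± 0.0705) and itraconazole (-0.090 ± 0.0704) did not pass (adjusted p = 0.234 and 0.288). Every neighbouring pair of groups overlapped when the 10 groups were put in order of their means. Exons of Sacm1l share 1800 bases with Slc6a20b on the opposite strand.

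Arf1 (chr11:59211412-59228270, minus strand) rose with LPS and with each compound. In untreated wild-type cells it had 432, 421 and 381 CPM without LPS and 629, 572 and 582 CPM with it (0.53 ± 0.0669, adjusted p = 2.02e-07). The change in Ch25h-/- cells was 0.56 ± 0.0669 (adjusted p = 9.49e-08). When scaled by library totals alone, these were 0.19 and 0.29, both still called. Without LPS it stood at 563, 587 and 543 CPM with 25HC, at 509, 494 and 474 CPM with itraconazole, and at 498, 496 and 500 CPM with OSW-1. All 9 libraries lay above the 3 untreated ones. In log2 terms the rises were 0.46 ± 0.0668 (adjusted p = 1.63e-05), 0.26 ± 0.0667 (adjusted p = 0.00515) and 0.28 ± 0.0667 (adjusted p = 0.00206).

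With LPS, Arf1 reached 659, 699 and 645 CPM with 25HC, 773, 753 and 750 CPM with itraconazole, and 794, 805 and 833 CPM with OSW-1. These 3 groups did not overlap with each other or with untreated cells given LPS. The log2 fold changes were 0.17 ± 0.0667 (adjusted p = 0.0453), 0.35 ± 0.0667 (adjusted p = 0.000101) and 0.45 ± 0.0668 (adjusted p = 1.66e-06; 0.70 when scaled by library totals alone). The 25HC call was lost without untreated mouse 2 or 3 or 25HC mouse 1 or 2 (0.13 to 0.18, adjusted p 0.0669 to 0.178), with DESeq2 size factors (adjusted p = 0.0535), without the filter (0.13) and with the compared groups alone (0.26). With 25HC the response to LPS was smaller than in untreated cells, with a log2 difference of -0.29 ± 0.0943 (adjusted p = 0.0456, 3 of 3 mice). That call was lost when any 1 of 8 of its 12 libraries was left out, namely untreated mouse 2 or 3 and 25HC mouse 1 or 2 without LPS, and untreated mouse 1 and any 25HC mouse with LPS (-0.32 to -0.24, adjusted p 0.0529 to 0.131). It was also lost with DESeq2 size factors (adjusted p = 0.0572), no filter (0.113), library totals alone (0.0762) and the compared groups alone (0.183). With OSW-1 the difference was 0.17 ± 0.0943 (adjusted p = 0.13), and was called by DESeq2 (0.20, adjusted p = 0.0262) and with library totals alone (0.37, adjusted p = 0.00249).

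Plekha3 (chr2:76675281-76696828, plus strand), which encodes the PI4P reader FAPP1, had a similar rise with each compound. Without LPS it had 28.2, 29.0 and 23.4 CPM in untreated cells, 42.0, 42.1 and 36.6 CPM with 25HC, 41.6, 42.2 and 37.0 CPM with itraconazole, and 42.4, 41.7 and 38.2 CPM with OSW-1. Every compound library lay above every untreated one. Log2 fold changes of 0.58 ± 0.112 (adjusted p = 0.000341), 0.58 ± 0.112 (adjusted p = 0.000385) and 0.60 ± 0.112 (adjusted p = 0.00014) were found, each close to 1.5-fold. LPS alone took it to 35.9, 34.5 and 33.0 CPM in wild-type cells (0.36 ± 0.112, adjusted p = 0.00732; 0.016 when scaled by library totals alone). The rise in Ch25h-/- cells was 0.54 ± 0.114 (adjusted p = 0.000258; 0.27, adjusted p = 0.073, when scaled by library totals alone).

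In cells given LPS, OSW-1 was the compound with a Plekha3 call, at 48.1, 44.4 and 45.3 CPM (0.41 ± 0.112, adjusted p = 0.00187; 0.67 when scaled by library totals alone). With 25HC the mice had 30.3, 34.2 and 42.4 CPM, which overlapped with the untreated group (0.047 ± 0.112, 95% interval -0.18 to 0.28, adjusted p = 0.77). Itraconazole gave 39.3, 39.1 and 41.8 CPM, above all untreated libraries, but did not pass (0.22 ± 0.111, adjusted p = 0.106); it passed when scaled by library totals alone (0.32, adjusted p = 0.0382). The response to LPS with 25HC differed from that of untreated cells by -0.54 ± 0.158 (adjusted p = 0.0275, 3 of 3 mice). That call was lost without untreated mouse 3, 25HC mouse 1 or 2, untreated LPS mouse 1, or 25HC LPS mouse 1 or 2 (-0.51 to -0.43, adjusted p 0.0542 to 0.0883), when scaled by library totals alone (adjusted p = 0.0692) and with the compared groups alone (adjusted p = 0.104).

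Plekha8 (chr6:54595111-54645839, plus strand) encodes FAPP2. It had 12.4, 14.2 and 15.2 CPM in untreated wild-type cells without LPS and 19.6, 19.1 and 16.4 CPM with LPS, with no overlap (0.40 ± 0.114, adjusted p = 0.00409; 0.053 when scaled by library totals alone). For Ch25h-/- cells the change was 0.30 ± 0.116 (adjusted p = 0.0324). It was lost without mouse 1 or 3 of either Ch25h-/- group (0.24 to 0.32, adjusted p 0.0509 to 0.117), without the filter (adjusted p = 0.0543) and when scaled by library totals alone (0.027, adjusted p = 0.857). In contrast to Plekha3, it was not higher with any compound. OSW-1 gave 11.2, 12.3 and 10.5 CPM without LPS (-0.30 ± 0.114, adjusted p = 0.0428) and 13.9, 13.8 and 11.1 CPM with it (-0.50 ± 0.115, adjusted p = 0.000387). The first call was lost without untreated mouse 2 or 3 or OSW-1 mouse 1 or 3 (-0.29 to -0.23, adjusted p 0.102 to 0.171), without the filter (adjusted p = 0.0804), when scaled by library totals alone (-0.23, adjusted p = 0.128) and with the compared groups alone (adjusted p = 0.0534). The second was lost when scaled by library totals alone (-0.24, adjusted p = 0.0721). Changes with 25HC and itraconazole were -0.21 to -0.16 in the 4 comparisons, and none passed. Exons of Plekha8 share 208 bases with Fkbp14 on the opposite strand.

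Ch25h-/- cells did not differ from wild-type cells in any of the 10 genes by edgeR, without LPS (beside 0.00759% of all genes, 1 gene) or with LPS (beside 0.228%, 30 genes, of which 0.0152% of all genes higher and 0.213% lower). DESeq2 called none of the 10. Among all 13173 genes, 1717 without LPS and 2257 with LPS had an unadjusted p under 0.05. Of the 10 there was 1 such gene in each. The gene without LPS was Plekha3, at 20.5, 25.2 and 18.5 CPM in Ch25h-/- cells (-0.33 ± 0.114, 95% interval -0.56 to -0.092, adjusted p = 0.225). With LPS it was Pi4kb, at 81.7, 82.3 and 79.9 CPM (-0.14 ± 0.0653, adjusted p = 0.285), which passed without untreated LPS mouse 3 of the wild-type (-0.22, adjusted p = 0.0127). The response to LPS did not differ between genotypes in any of the 10 (beside 0% of all genes). None of the 10 had an unadjusted p under 0.05 there, beside 1476 of all 13173 genes. For Col4a3bp the difference of response was -0.19 ± 0.163 (95% interval -0.53 to 0.15, adjusted p = 0.67). Intervals of this width do not show that the genotypes were alike.

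Lists of 75 genes that act with these proteins, 73 of them tested, gave the surroundings. Their counts are descriptions, and none was tested as a list. The share of all tested genes called higher or lower stands beside them. Where it is not repeated, for 25HC, itraconazole and OSW-1 among cells with LPS, it was 20.8%, 26.5% and 34.3% higher and 21%, 27.9% and 37.1% lower.

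Among 12 scaffolds and activators of PI4-kinases, 7 were lower (30.1% of all genes) and 2 higher (30.8%) with LPS in wild-type cells (list median -0.30, all genes -0.0091). Prkd3, a protein kinase D, fell from 61.3 to 27.7 CPM (-1.15 ± 0.0776, adjusted p = 3.36e-12). Efr3b, a membrane anchor of the PI4KA complex, fell from 19.4 to 3.15 CPM (-2.62 ± 0.313, adjusted p = 8.95e-08). Without LPS, 6 were higher and 1 lower with 25HC (15.9% and 12.8% of all genes), 4 and 1 with itraconazole (14.4% and 12.4%), and 7 and 2 with OSW-1 (20.1% and 17.2%). After LPS the counts were 4 and 1, 5 and 2, and, with OSW-1, 4 and 5 (34.3% and 37.1% of all genes, list median -0.027). Acbd3, the Golgi partner that recruits PI4KB, rose from 57.2 CPM to 112 CPM with 25HC (0.97 ± 0.111, adjusted p = 5.61e-07), 91.2 CPM with itraconazole (0.67 ± 0.11) and 111 CPM with OSW-1 (0.95 ± 0.11). Among cells with LPS, Acbd3 rose from 85.1 to 289 CPM with OSW-1 (1.76 ± 0.112, adjusted p = 7.68e-13), in the same libraries in which Pi4kb fell.

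Of 13 ARF1 paralogs and regulators, 7 were higher and 1 lower with LPS in wild-type cells (30.8% and 30.1% of all genes). Without LPS, 6 were higher with 25HC (15.9% of all genes), 6 with itraconazole (14.4%) and 7 with OSW-1 (20.1%), and none was lower (12.8%, 12.4% and 17.2%). With LPS the counts were 7 higher and 2 lower for 25HC (20.8% and 21% of all genes), 8 and 2 for itraconazole (26.5% and 27.9%) and 9 and 2 for OSW-1 (34.3% and 37.1%, list median 0.61, all genes -0.058). Arfgap1, which switches ARF1 off, was among the named genes in all 6 compound comparisons, from 0.46 ± 0.0887 with itraconazole alone to 1.68 ± 0.0906 with OSW-1 and LPS (51.3 to 164 CPM, adjusted p = 4.63e-14). Arf4, a related GTPase of the early Golgi, went from 179 to 627 CPM in the latter (1.81 ± 0.097, adjusted p = 3.81e-14). Arl1, a GTPase of the trans-Golgi, rose with LPS alone from 90.1 to 152 CPM (0.75 ± 0.096, adjusted p = 2.57e-07) and went from 152 to 368 CPM with OSW-1 and LPS (1.28 ± 0.0966).

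Among 9 regulators of CERT and neighbouring lipid carriers, 5 were higher and 1 lower with 25HC without LPS (15.9% and 12.8% of all genes), 4 and 0 with itraconazole (14.4% and 12.4%), and 5 and 1 with OSW-1 (20.1% and 17.2%). The list medians were 0.33, 0.31 and 0.58 (all genes 0.0070, 0.0040 and 0). In the comparisons with LPS the counts were 4 and 1, 6 and 1, and 6 and 2 in that order. LPS alone gave 5 higher (30.8% of all genes) and 1 lower (30.1%) in untreated wild-type cells. Ugcg, the glucosylceramide synthase, which uses ceramide as CERT does, rose from 34.6 CPM to 52.7, 52.0 and 63.1 CPM in that order (adjusted p = 0.00124, 0.00194 and 1.49e-05). With LPS it rose from 33.8 CPM to 61.7, 89.0 and 81.6 CPM (adjusted p = 1.7e-05, 9.43e-09 and 6.22e-09). Sgms1, a Golgi sphingomyelin synthase, rose from 57.9 CPM to 92.2, 80.2 and 117 CPM without LPS (adjusted p = 0.00106, 0.0172 and 6.12e-06). Csnk1g3, a casein kinase of the family that phosphorylates CERT, was higher in all 6 compound comparisons, from 0.31 ± 0.0722 with itraconazole to 0.74 ± 0.0721 with OSW-1 and LPS. With LPS in wild-type cells, Csnk1g2 fell (-0.69 ± 0.0874) and Csnk1g1 rose (0.77 ± 0.103).

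Of 19 tested VAP-binding proteins and relatives, 5 were higher and 8 lower with LPS in wild-type cells (30.8% and 30.1% of all genes). With the compounds without LPS, 2 were higher and 3 lower (25HC, 15.9% and 12.8% of all genes), 3 and 5 (itraconazole, 14.4% and 12.4%) and 3 and 6 (OSW-1, 20.1% and 17.2%). Given LPS as well, the counts were 3 and 4, 5 and 4, and 4 and 9 in that order. Osbpl3 rose with LPS alone in wild-type cells, from 36.7 to 193 CPM (2.39 ± 0.206, adjusted p = 3.2e-10). Pitpnm1, a phosphatidylinositol carrier, also rose, from 91.5 to 196 CPM (adjusted p = 9.18e-12), and so did Stard3, a sterol carrier, from 106 to 205 CPM (adjusted p = 3.35e-09). Osbp, whose product the compounds target, was higher in all 6 compound comparisons. It rose from 72.5 to 96.5 CPM with 25HC (0.41 ± 0.0857, adjusted p = 0.000736), to 88.1 CPM with itraconazole (0.28 ± 0.0857, adjusted p = 0.0166) and to 103 CPM with OSW-1 (0.51 ± 0.0857, adjusted p = 4.89e-05). With LPS it went from 86.9 to 131 CPM with 25HC (0.60 ± 0.0858), to 155 CPM with itraconazole (0.84 ± 0.086, adjusted p = 2.45e-08) and to 185 CPM with OSW-1 (1.09 ± 0.0863, adjusted p = 3.92e-11). Zfyve27 (protrudin) was higher in all 6 compound comparisons, and went from 44.8 to 92.0 CPM for OSW-1 with LPS (1.04 ± 0.0657). Osbpl11 fell in each compound comparison without LPS, from 150 CPM to 86.4, 84.5 and 82.4 CPM. Vps13c, a bridge-like lipid carrier, fell from 60.4 to 12.2 CPM with OSW-1 and LPS (-2.31 ± 0.162, adjusted p = 4.27e-12).

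Of 10 Golgi PI4P effectors, 4 were higher and 3 lower with LPS in wild-type cells, close to the shares of all genes (30.8% and 30.1%). Without LPS, 1 was higher and 2 lower with 25HC (15.9% and 12.8% of all genes), 1 and 3 with itraconazole (14.4% and 12.4%) and 1 and 2 with OSW-1 (20.1% and 17.2%). With both a compound and LPS the counts were 4 and 2, 4 and 2, and 5 and 4. Ap1b1, a subunit of the clathrin adaptor AP-1, fell from 376 CPM to 206, 203 and 162 CPM with 25HC, itraconazole and OSW-1 without LPS (adjusted p = 0.00106, 0.000932 and 1.55e-05). Another subunit, Ap1m1, fell with LPS from 93.4 to 61.2 CPM (-0.61 ± 0.0635, adjusted p = 8.67e-09) and stood at 122 CPM with OSW-1 and LPS (1.00 ± 0.0639). Of 10 phosphoinositide phosphatases and PI4P 5-kinases, 6 were higher and 3 lower with LPS in wild-type cells (30.8% and 30.1% of all genes). Inpp5b, a 5-phosphatase, rose from 54.1 to 120 CPM (1.15 ± 0.135, adjusted p = 6.65e-08). Without LPS the counts were 1 higher and 1 lower with 25HC (15.9% and 12.8% of all genes), 1 and 1 with itraconazole (14.4% and 12.4%), and 4 and 2 with OSW-1 (20.1% and 17.2%). In cells given LPS, 25HC gave 4 higher and 3 lower (20.8% and 21% of all genes), itraconazole 2 and 6 (26.5% and 27.9%) and OSW-1 3 and 5 (34.3% and 37.1%). Ocrl, the other 5-phosphatase of that type, fell from 61.0 to 40.2 CPM with 25HC, 34.1 CPM with itraconazole and 24.9 CPM with OSW-1 (adjusted p = 0.000106, 7.54e-07 and 1.64e-10).

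**Figure D5:**
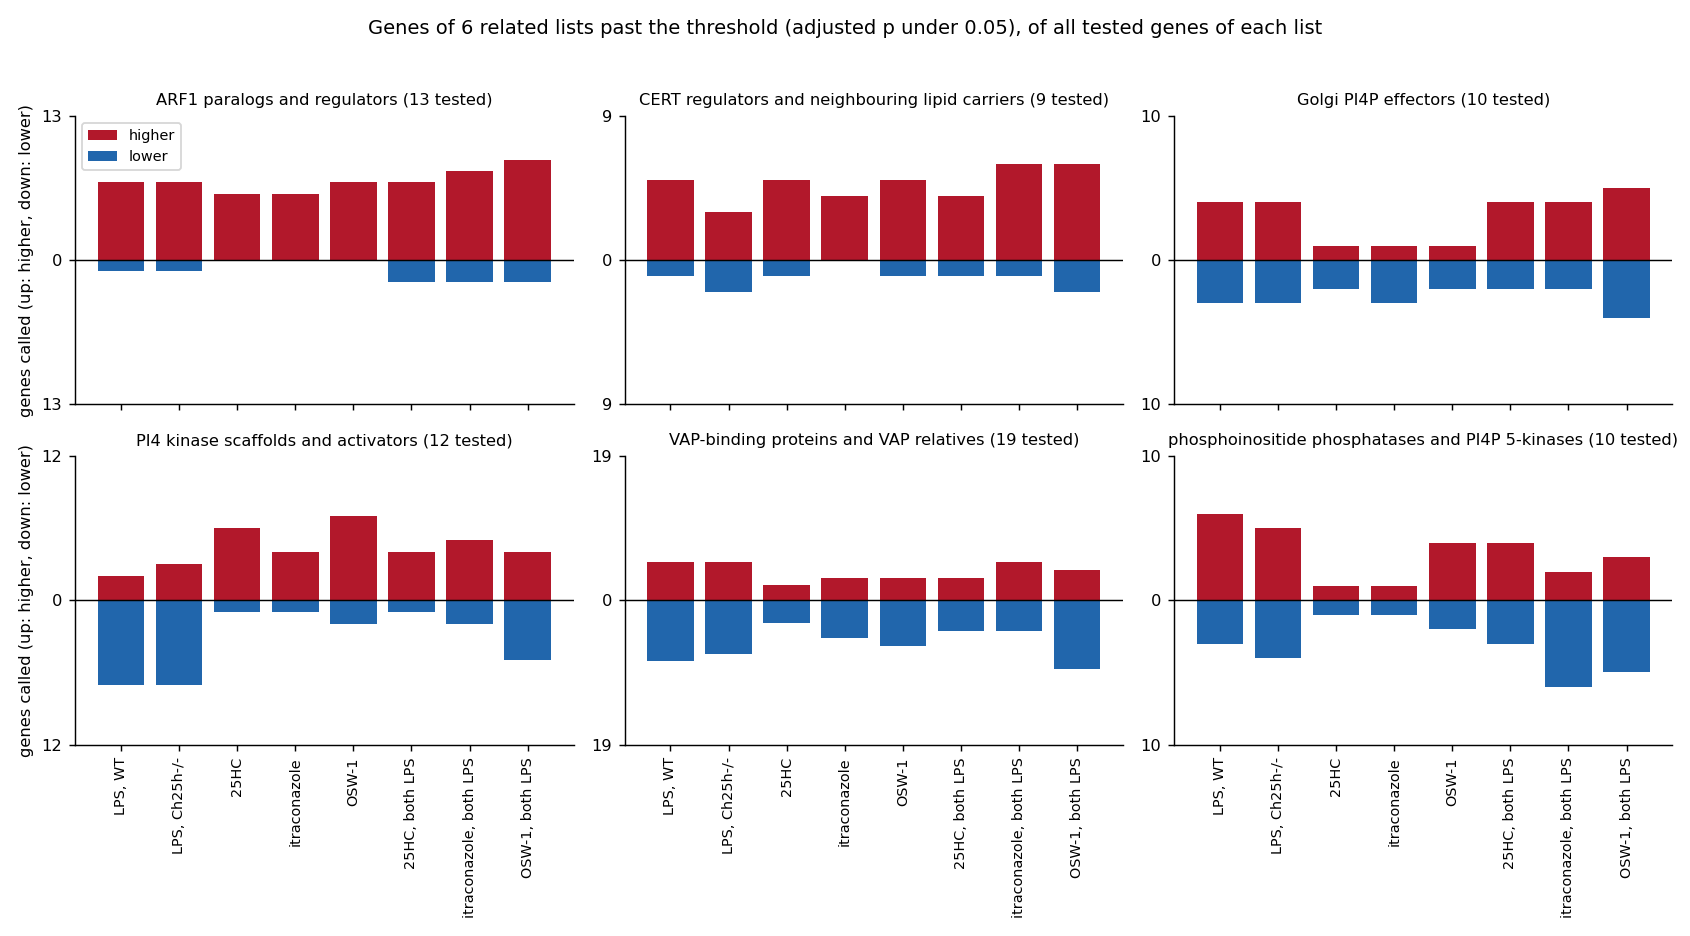
Number of genes called higher (up) and lower (down) in 6 related lists, in 8 comparisons, with each axis ending at the number of tested genes of the list. Of 13 genes, the ARF1 list has 6 to 9 higher and 0 to 2 lower in the compound comparisons. Over all tested genes, 14.4% to 34.3% were higher and 12.4% to 37.1% lower there. The PI4-kinase list has 7 of 12 genes lower with LPS in wild-type cells, beside 30.1% of all genes.

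Across the 10 group means of log2 CPM, which share mice and untreated groups, the 10 genes fell into patterns. Vapa and Arf1 had a Pearson correlation of 0.966, Pi4k2a and Plekha8 of 0.94, and Vapb and Pi4ka of 0.896, while Vapa and Vapb had -0.867. Among 9768 other genes with an average log2 CPM of at least 2, Col4a3bp was most like Erc1 (0.987), Tmem263 (0.981) and Ugcg (0.98). Vapa was most like Hax1, Surf4 and Spcs2 (0.997, 0.997 and 0.995), and Arf1 like D17Wsu104e, Fastkd1 and Ak6 (0.995, 0.99 and 0.989). Pi4k2a was most like 6330416G13Rik, Il18bp and 1600014C10Rik (0.989, 0.986 and 0.986), and Plekha8 like Psmb9, Lgals3bp and Parp11 (0.99, 0.99 and 0.986). Plekha3 was most like Set (0.979), Pi4kb like Dcun1d4 (0.973), Pi4ka like Atp5a1 (0.979), Sacm1l like 5730508B09Rik (0.989) and Vapb like Arid1b (0.957). With 10 points that share treatments, these values describe likeness of pattern only.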

How the data were processed

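The data are whole-number counts per gene from polyA-selected, stranded RNA-seq of 30 libraries, deposited by the authors as 1 table. Per the submitters' processing notes, FastQC 0.11.9, GSNAP, featureCounts of Subread 1.5.2 and edgeR 3.26.8 were used with GRCm38/mm10. The strand setting and annotation release are not given in the sources used here. Of 30538 gene identifiers, 30126 were matched to GENCODE vM21.

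Counts were scaled by TMM, filtered with filterByExpr (minimum count 10) and fitted in edgeR 4.0.16 (R 4.3.3) by 1 quasi-likelihood model with a mean for each of 10 groups. Benjamini-Hochberg adjustment ran over 13173 genes in each of 14 comparisons, with calls at an adjusted p under 0.05. Each SE was taken from the log2 fold change and its F statistic (change over root F), and intervals are 95%. CPM are TMM-scaled. The replicates are mice as labelled. The main fit does not pair libraries of 1 mouse number. Its p-values rest on the spread between libraries within groups, shared over the 10 groups. Pairing was run as an alternative, the mouse block. From each list, up to 3 called genes with the smallest p, no overlap of groups and an average log2 CPM of at least 2 are named. For likeness of pattern, a prior count of 2 and the 3 closest genes were used. The members, lists and tests were chosen with earlier results of these data known.

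Mouse numbers were read within a genotype. Once each group's mean was subtracted, a library's correlations with the other groups of its genotype were averaged by number. That mean was highest for the library's own number in 24 of 24 wild-type and in 6 of 6 Ch25h-/- libraries. What lay behind this likeness was not tested. Median correlations within a number were 0.0865 and 0.0906. Alternatives were DESeq2 size factors in edgeR, DESeq2 1.42.0, no filter, a mouse block, the compared groups alone, even counts halved, each library left out and, added after seeing the scaling factors, library totals alone. The fit was tested on simulated data. Adgre1, a macrophage marker, was not used here. Figures were drawn with matplotlib 3.10.9.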

Additional observations from a re-analysis of the deposited data

Results flagged for a closer look

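For 7 pairs of gene and compound, the response to LPS differed from that of untreated wild-type cells by edgeR's test of the difference itself, adjusted over all tested genes. The share of all genes called by that test was 12.3% with 25HC, 26.3% with itraconazole and 51.7% with OSW-1. The log2 differences for Col4a3bp were 0.58 with 25HC, 0.84 with itraconazole and 0.71 with OSW-1, each in 3 of 3 mice. For 25HC they were -0.29 for Arf1 and -0.54 for Plekha3, in 3 of 3 mice each. The calls with 25HC were lost in 12 of 19 alternative settings for Arf1, 8 for Plekha3 and 1 for Col4a3bp. For OSW-1 the log2 differences were -0.58 for Pi4kb and -0.67 for Pi4k2a, in 3 of 3 mice each. The 3 compounds share their untreated libraries. Groups of 3 are too small for a search for single outlying libraries, and none was made.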

How the results depend on the processing

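Col4a3bp with each compound, Plekha3 and Arf1 with each compound without LPS, Pi4k2a and Vapa with LPS, and Pi4kb and Pi4k2a with OSW-1 and LPS kept direction and call under every alternative run. With scaling by library totals alone, the median log2 fold change of all genes was -0.35 for LPS in wild-type cells, -0.29 in Ch25h-/- cells, 0.19 for OSW-1 with LPS and 0.14 for the OSW-1 difference of response, so the changes of the 10 genes there are relative to these. The genes called higher and lower then numbered 2277 and 6533 (4056 and 3968 in the main analysis) for LPS in wild-type, 2249 and 5836 (3687 and 3847) in Ch25h-/-, 5700 and 3820 (4516 and 4887) for OSW-1 with LPS and 4199 and 2898 (3076 and 3732) for that difference. Reversed values with that scaling were Pi4kb with LPS in wild-type cells (-0.12) and, for OSW-1 with LPS, Vapb (0.023) and Sacm1l (0.014). It also gave 1 in place of 3 of the 10 genes for the 25HC difference of response and 6 in place of 3 for OSW-1.

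The other counts that moved by over 1.5 times were these. With the compared groups alone, 25HC with LPS gave 3215 genes (5512) and 1 of the 10 (3), itraconazole with LPS 4571 (7164) and 3 (7), and the differences of response 903 (1620) and 1 of the 10 (3) for 25HC and 2292 genes (3467) for itraconazole. Without the filter, 25HC with LPS gave 1 of the 10. DESeq2 gave 2 of the 10 (1) for the itraconazole and 5 (3) for the OSW-1 difference, and 8 genes (0) for that of Ch25h-/-. For Ch25h-/- against wild-type without LPS (1 gene) the counts were 5 with DESeq2 size factors, of which 1 was higher, 2 without the filter, 6 with even counts halved, 129 with DESeq2 and 0 with the groups alone. With LPS (30 genes) they were 81 without the filter, 58 with even counts halved, 230 with DESeq2 and 0 with the groups alone.

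With mice as a replicate block within a genotype, Col4a3bp with LPS in wild-type cells was gained (-0.21) and Pi4kb with itraconazole was lost (-0.17). No other call on the 10 genes changed. With the number shared between genotypes as the block, Ch25h-/- against wild-type gave 30 genes without LPS and 78 with LPS.

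Leaving out 1 library gave ranges of 2359 to 4032 genes for 25HC without LPS (fewest without 25HC mouse 2) and 2243 to 3209 for itraconazole without LPS (fewest without untreated mouse 3). Of the 10 genes, 25HC with LPS kept 1 to 3 (1 without untreated or 25HC mouse 2). The 25HC difference gave 889 to 2076 genes and 0 to 4 of the 10 (889 and 0 without 25HC LPS mouse 2), and the itraconazole difference 1 to 2 of the 10. Ch25h-/- against wild-type gave 1 to 361 genes without LPS (361 without wild-type mouse 3). With LPS it gave 0 to 2396 genes and 0 to 1 of the 10, and the difference of response 0 to 716 genes (2396, 1 and 716 without wild-type LPS mouse 3; 0 genes with LPS without Ch25h-/- LPS mouse 1). The cause of these changes was not tested. Signs changed 61 times between values that passed in neither setting; these were not counted as reversals. The 10 genes had at least 323 counts a library, and the part of depth in their spread was not tested. The 3 mice a group limit the precision.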
